A study of Mus musculus with 4 samples.

Results

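The genes described here carry the symbols of subunits of the mitochondrial respiratory chain and ATP synthase, 97 of the 27998 genes in the annotation of the deposited tables. They were chosen by symbol alone: the Nduf subunits of complex I, Sdha to Sdhd of complex II, the Uqcr genes of complex III, the Cox4 to Cox8 genes of complex IV, the Atp5 genes of complex V, and every protein-coding gene carried by mitochondrial DNA. The nucleus encodes 84 of them, with 37 in complex I, 4 in complex II, 8 in complex III, 18 in complex IV and 17 in complex V. Mitochondrial DNA encodes the other 13, with 7 in complex I, 1 in complex III, 3 in complex IV and 2 in complex V. Sums over the nuclear and over the mitochondrial genes were kept apart throughout.

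The study profiled single cells of the developing mouse cardiac conduction system (CCS), the specialized myocytes that pace the heartbeat and carry it through the heart, in untreated wild-type CD1 hearts at embryonic day 16.5. Each of 4 microdissected regions gave a single 10x Genomics 3′ library: the sinoatrial node (SAN) region, the atrioventricular node and His bundle (AVN/His) region, and the bundle branch and Purkinje fiber (BB/PF) region of each ventricle, left and right. The regions hold mostly cells that are not conduction cells, no label ties a library to particular animals, and p-values therefore measure only the spread among sums of these libraries. Where the library was a block, that spread is what remained after differences between libraries were taken out. Of 22805 barcodes, 21035 with at least 500 detected genes were kept (4356 to 5934 per library, median 8479.5 to 9272 unique molecular identifiers, UMIs, per cell).

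Cells were grouped by clustering with the respiratory chain genes and the hemoglobin genes left out of the variable genes. Their UMIs stayed in the total by which each cell was scaled and which was regressed out, so the classes are not fully independent of them. Cardiomyocyte-like cells numbered 12076, fibroblast or mesenchyme-like cells 4207, endothelial-like cells 2088, pericyte-like cells 652, macrophage-like cells 408, smooth muscle-like cells 215, epicardial-like cells 207 and neural or glial-like cells 72. A cluster of 1110 barcodes led by hemoglobin genes stayed unnamed. Among the myocytes, 6328 were ventricular-like, 2582 atrial-like, 2424 cycling-like, 71 PF-like, 179 SAN-like, 171 AVN/His-like and 321 of no subtype. The pericyte-like cluster also passed the smooth muscle markers, and the small atrial-like cluster of the AVN/His region carried 6 of 8 AVN/His markers against 5 of 8 in the AVN/His-like cluster, so a name here rests on the markers that passed and marks no pure type. Several clusters named in this way were led by other genes. Cycle genes led 3 of the ventricular-like clusters (1721 cells) and 2 of the atrial-like ones (519 cells), which passed too few cycling markers to be called cycling-like, and mitochondrial genes led 2 of the ventricular-like clusters (955 cells). Hemoglobin genes stood among the leading 10 of a cycling-like cluster of 190 cells and a ventricular-like cluster of 85 cells in the AVN/His region. The comparisons were therefore also run without each of these groups or without cells over 1% hemoglobin, and the values that moved stand beside the results. Pairs of libraries shared 29 to 49 barcode sequences.

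The respiratory chain passes electrons from NADH (complex I) and succinate (complex II) through complex III to oxygen at complex IV, pumping protons across the inner mitochondrial membrane, and complex V (ATP synthase) uses the returning protons to make ATP. Most subunits are nuclear genes whose proteins are imported, while mitochondrial DNA supplies a few core subunits of every complex except complex II. Heart muscle depends on this pathway for nearly all of its ATP, and mitochondria fill much of the volume of a mature myocyte. Several complex IV subunits exist as paired isoforms, with a heart and skeletal muscle form (Cox6a2, Cox7a1, Cox8b) beside a form found in most tissues (Cox6a1, Cox7a2, Cox8a). Cox4i2 and Ndufa4l2 are alternative forms of Cox4i1 and Ndufa4 that are known to respond to low oxygen.

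Nuclear respiratory chain genes are classically described as sharing short promoter elements for a few transcription factors, and the start sites of several members are therefore shown. RefSeq promoters of GRCm38.p6 (250 bases before to 50 after the start) matched 66 of the 84 nuclear members by symbol. The 100 bases before the start are given 5′ to 3′ on the strand of the gene, with capitals marking matches on either strand to the NRF1 site GCGCATGC, the ETS site CCGGAAGT or the ESRR site TCAAGGTCA. Atp5k, Ndufa11 and Uqcr11 hold the first or second of these, Atp5h the second, Atp5g3 the third, and the muscle isoforms Cox7a1 and Cox8b none of them in this window. Most of the 66 members hold none of these sites over the whole promoter either, so their lack is not particular to muscle isoforms. The muscle isoform Cox6a2 had no matched promoter.
Atp5k (chr5:108434400-108434499, minus strand): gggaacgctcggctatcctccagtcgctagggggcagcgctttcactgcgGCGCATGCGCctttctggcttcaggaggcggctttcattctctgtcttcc
Ndufa11 (chr17:56717662-56717761, plus strand): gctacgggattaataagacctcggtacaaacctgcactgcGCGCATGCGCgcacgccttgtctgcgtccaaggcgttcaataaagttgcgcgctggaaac
Uqcr11 (chr10:80406822-80406921, minus strand): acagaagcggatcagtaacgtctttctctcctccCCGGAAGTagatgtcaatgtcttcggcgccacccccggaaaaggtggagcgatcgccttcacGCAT
Atp5h (chr11:115419920-115420019, minus strand): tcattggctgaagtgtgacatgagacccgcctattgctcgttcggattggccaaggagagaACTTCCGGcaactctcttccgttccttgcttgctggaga
Atp5g3 (chr2:73911327-73911426, minus strand): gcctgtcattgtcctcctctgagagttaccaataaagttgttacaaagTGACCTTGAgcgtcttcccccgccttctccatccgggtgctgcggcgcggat
Cox7a1 (chr7:30184071-30184170, plus strand): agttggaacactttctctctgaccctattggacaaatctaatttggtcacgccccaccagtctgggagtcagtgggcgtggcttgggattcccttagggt
Cox8b (chr7:140900447-140900546, minus strand): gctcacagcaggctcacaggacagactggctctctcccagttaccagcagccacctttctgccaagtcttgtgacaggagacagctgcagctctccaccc
The capitals in Atp5k and Ndufa11 hold 2 overlapping NRF1 matches, 1 on each strand, and the match of Uqcr11 continues past the end of the window. Over whole promoters, the NRF1 letters stood in 10 of the 66 members (15.2%, against 3.05% of 27025 genes), among them Sdhb, Cox6a1 and Uqcrc1. The ETS letters stood in 5 (7.58% against 4.31%), the ESRR letters in 2, Atp5g3 and Sdhd (3.03% against 0.466%), and the YY1 letters AAGATGGC in 9 (13.6% against 3.19%), among them Ndufs6 and Ndufb8. These are counts of letters, not of bound sites.

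All 97 genes had UMIs, and together they held 39036518 UMIs, 19.0% of all UMIs of the kept cells. The nuclear members took 7.86% and the mitochondrial members 11.2%. By complex the nuclear members held 2.10% (I), 0.144% (II), 1.01% (III), 2.24% (IV) and 2.36% (V), so complex II, the only complex with no mitochondrial member, was the least abundant by far. The mitochondrial members held 2.50% (I), 1.16% (III), 5.10% (IV) and 2.40% (V). Since 3′ libraries count each molecule once, these levels were not divided by transcript length.

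The most abundant nuclear members were Cox4i1 with 652156 UMIs in 99.9% of cells, Cox6c with 534761, Cox7c with 487960 and Atp5b, the catalytic β subunit of ATP synthase, with 462373. At the other end, the testis isoform Cox8c had 2 UMIs in all and was not tested, and Cox7b2 had 135. Among mitochondrial members mt-Atp6 had 4906845 UMIs, mt-Co3 4573033 and mt-Co1 3267999, while mt-Nd6, the only member on the light strand (chrM:13552-14070, minus strand), had 6422. The mitochondrial genes come from long shared precursors, and the major ones kept similar relative levels. Over 25 sums by named cell type and library, mt-Atp6 made up 20.1% to 25.4% of the mitochondrial sum, mt-Co3 19.3% to 23.6%, mt-Co1 10.4% to 15.8%, mt-Co2 9.59% to 12.2%, mt-Nd1 9.0% to 12.1% and mt-Cytb 8.54% to 11.5%. mt-Nd4 made up 5.11% to 6.75%, mt-Nd2 2.44% to 3.55%, mt-Nd3 0.784% to 1.19%, mt-Nd5 0.570% to 0.929%, mt-Nd4l 0.215% to 0.430% and mt-Atp8 0.0974% to 0.319%, while mt-Nd6 ranged from 0% to 0.0632%. Reads of mt-Atp8 and mt-Atp6, whose genes share 43 bases, and of mt-Nd4l and mt-Nd4, which share 7, cannot always be assigned to one of the pair.

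The first question was how far the respiratory chain differed between cell types. Myocytes stood apart from every other named class in both sums. In cardiomyocyte-like cells the nuclear members took 8.92% of UMIs other than hemoglobin in the SAN region, 11% in the AVN/His region, 11.5% in the left BB/PF region and 12% in the right BB/PF region, and the mitochondrial members took 11.1%, 15%, 15.1% and 16.3%. The lowest myocyte library, the SAN region, lay above every library of the other named classes.

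In endothelial-like cells the nuclear sum was 3.09%, 3.14%, 3.35% and 3.24% in the same order of regions, and the mitochondrial sum 4.74%, 4.46%, 3.83% and 4.84%. Fibroblast or mesenchyme-like cells gave nuclear sums of 2.85%, 3.11%, 3.50% and 2.98% and mitochondrial sums of 3.64%, 3.97%, 3.70% and 4.60%. The ranges of these 2 classes overlapped in both sums. By the median over libraries, pericyte-like cells held the highest nuclear sum of the named classes other than myocytes. It was 3.57%, 4.28%, 4.72% and 4.41%, above the fibroblast or mesenchyme-like sum of the same library in all 4 regions. Their mitochondrial sum ran from 3.15% to 6.91%. The lowest value, in the SAN region, lay below the fibroblast or mesenchyme-like 3.64% there. Macrophage-like cells held 2.94% to 3.82% nuclear and 4.84% to 6.79% mitochondrial UMIs, and epicardial-like, smooth muscle-like and neural or glial-like cells 2.57% to 3.23% nuclear and 3.42% to 4.66% mitochondrial.

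**Figure D1:**
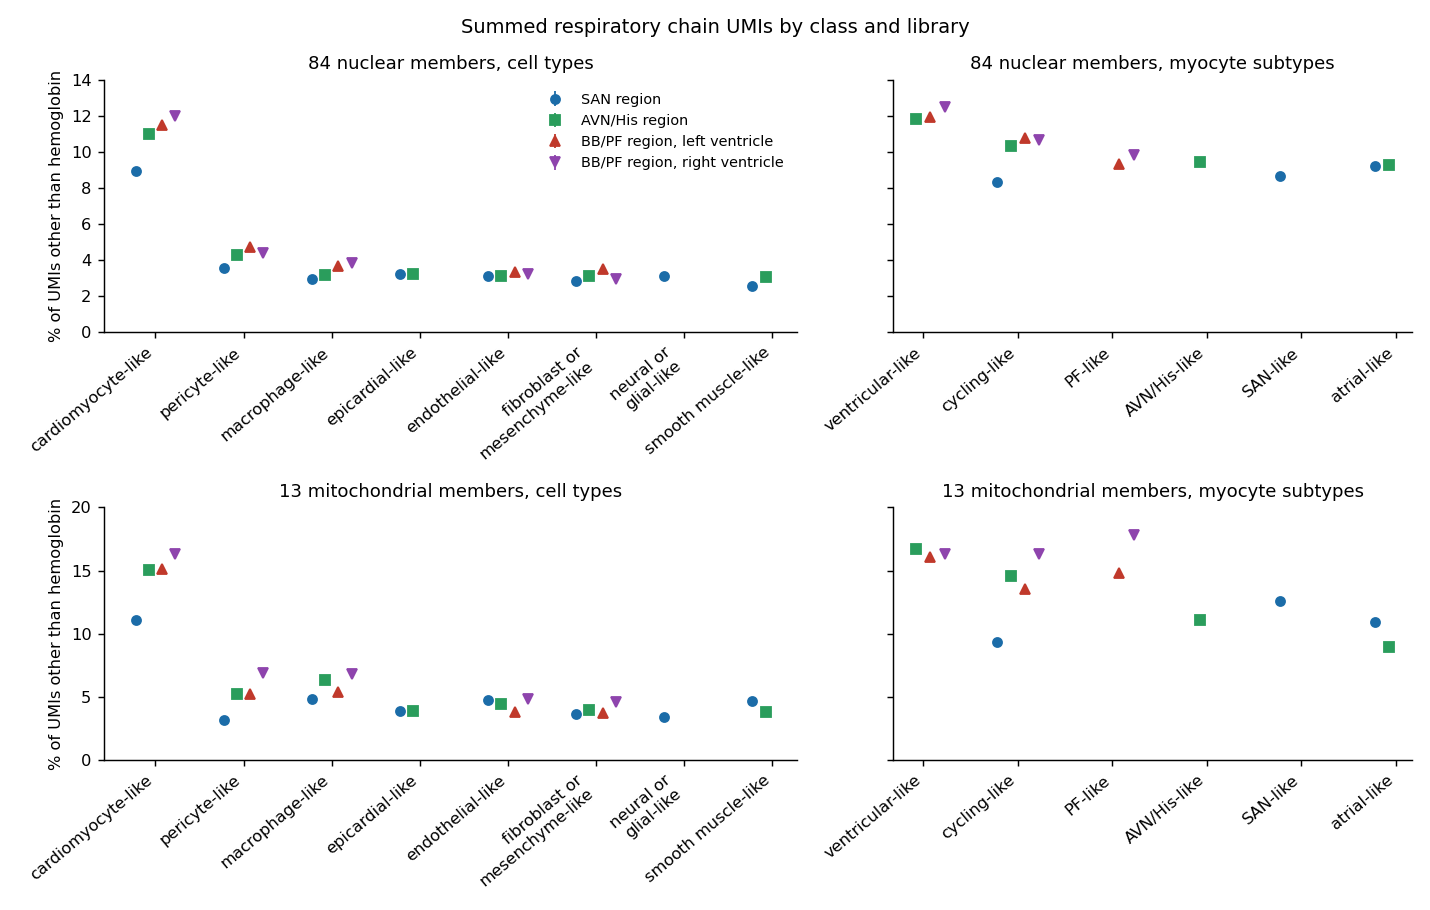
Summed UMIs of the 84 nuclear members (top) and the 13 mitochondrial members (bottom) as a percent of UMIs other than hemoglobin, by cell type (left) and myocyte subtype (right), 1 point per library with at least 20 cells of the class. Exact 95% intervals for counting error are smaller than most symbols, and cardiomyocyte-like sums (8.92% to 12% nuclear) lie above all other types.

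The balance between complexes shifted by small amounts between cardiomyocyte-like and fibroblast or mesenchyme-like cells. Complex I made up 25.9% to 27.5% of the nuclear sum in cardiomyocyte-like cells and 28.8% to 29.99% in fibroblast or mesenchyme-like cells. Complex V made up 29.97% to 30.6% and 29.6% to 30.05%, and complex IV 28.3% to 28.7% and 26.8% to 27.5%. The ranges overlapped for complex V but not for complexes I and IV. The balance in other classes is not given here. The myocyte sum was higher in each complex.

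Gene by gene, the members were compared between cardiomyocyte-like cells and the mean of endothelial-like and fibroblast or mesenchyme-like cells, with UMIs summed per library and class and fitted with edgeR's quasi-likelihood test with the library as a block. The fit held 25 sums of all named classes, with 14 residual degrees of freedom, so the spread was pooled over these classes. Of 83 nuclear members tested, 81 were higher in cardiomyocyte-like cells and 2 were lower at a Benjamini-Hochberg adjusted p under 0.05, with a median log2 fold change of 2.10. Of all 13896 genes tested, 32.3% were higher and 34.7% were lower, with a median of -0.05. All 13 mitochondrial members were higher, with a median of 2.16. By complex, 36 of 37 members of complex I were higher (median 2.04), 4 of 4 of complex II (2.26), 8 of 8 of complex III (2.24), 16 of 17 of complex IV (2.14) and 17 of 17 of complex V (2.10). Scaling to UMI totals in place of TMM factors moved the median of all genes to -0.38 and that of the nuclear members to 1.76, with 79 higher.

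In complex I the largest differences were in Ndufs1, the large iron-sulfur subunit, at a log2 fold change of 2.72 ± 0.13 (SE; edgeR adjusted p = 1.84e-13), Ndufa11 at 2.59 and Ndufb9 at 2.48. Ndufs1 stood at 164, 182, 192 and 187 CPM (10000 CPM are 1% of UMIs other than hemoglobin) in cardiomyocyte-like cells of the 4 regions and at 31.4, 32.1, 32.8 and 25.4 in endothelial-like cells, and the groups did not overlap. The smallest rises in this complex were those of Ndufa7 at 1.21 and Ndufb3 at 1.35. In complex III Uqcr11, a small peripheral subunit, led at 2.60 (CPM 1809 to 2556 in myocytes, 450 to 488 in endothelial-like cells), followed by Uqcr10 at 2.39 and Uqcrb at 2.34, and Uqcrh, the hinge protein, rose least, by 1.86, after Uqcrc1 at 2.07 and Uqcrc2 at 2.21.

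All 4 subunits of succinate dehydrogenase, which also serves the citric acid cycle, moved by nearly equal amounts. The log2 fold change was 2.37 for the flavoprotein subunit Sdha, 2.26 for the iron-sulfur subunit Sdhb, 2.26 for the membrane anchor Sdhc and 2.15 for the other anchor Sdhd. In cardiomyocyte-like cells Sdhb stood at 536, 843, 892 and 947 CPM in the SAN, AVN/His, left and right BB/PF regions, and in endothelial-like cells at 158, 191, 214 and 184. The SAN region was the lowest myocyte library for each of the 4 genes, with Sdha at 220 CPM there against 387 to 476 in the others.

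In complex V the genes for subunit c, the proton-carrying ring, diverged. Atp5g1, Atp5g2 and Atp5g3 encode the same mature protein behind different import sequences. Atp5g1 (log2 fold change 2.80) and Atp5g3 (2.73) led the complex, while Atp5g2 rose least, by 1.02. Atp5g2 supplied 45.2% to 46.9% of subunit c UMIs in endothelial-like cells and 16.5% to 19.4% in cardiomyocyte-like cells, where Atp5g1 supplied 47.5% to 52.4%. Atp5o, the stalk subunit, was higher by 2.57, and Atp5e rose by 1.49. Atp5sl, which rose by 1.57, is counted with complex V by symbol only, as a later annotation names it Dmac2. The 13 mitochondrial members lay between 1.62 for mt-Atp8 and 2.33 for mt-Nd4l.

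**Figure D2:**
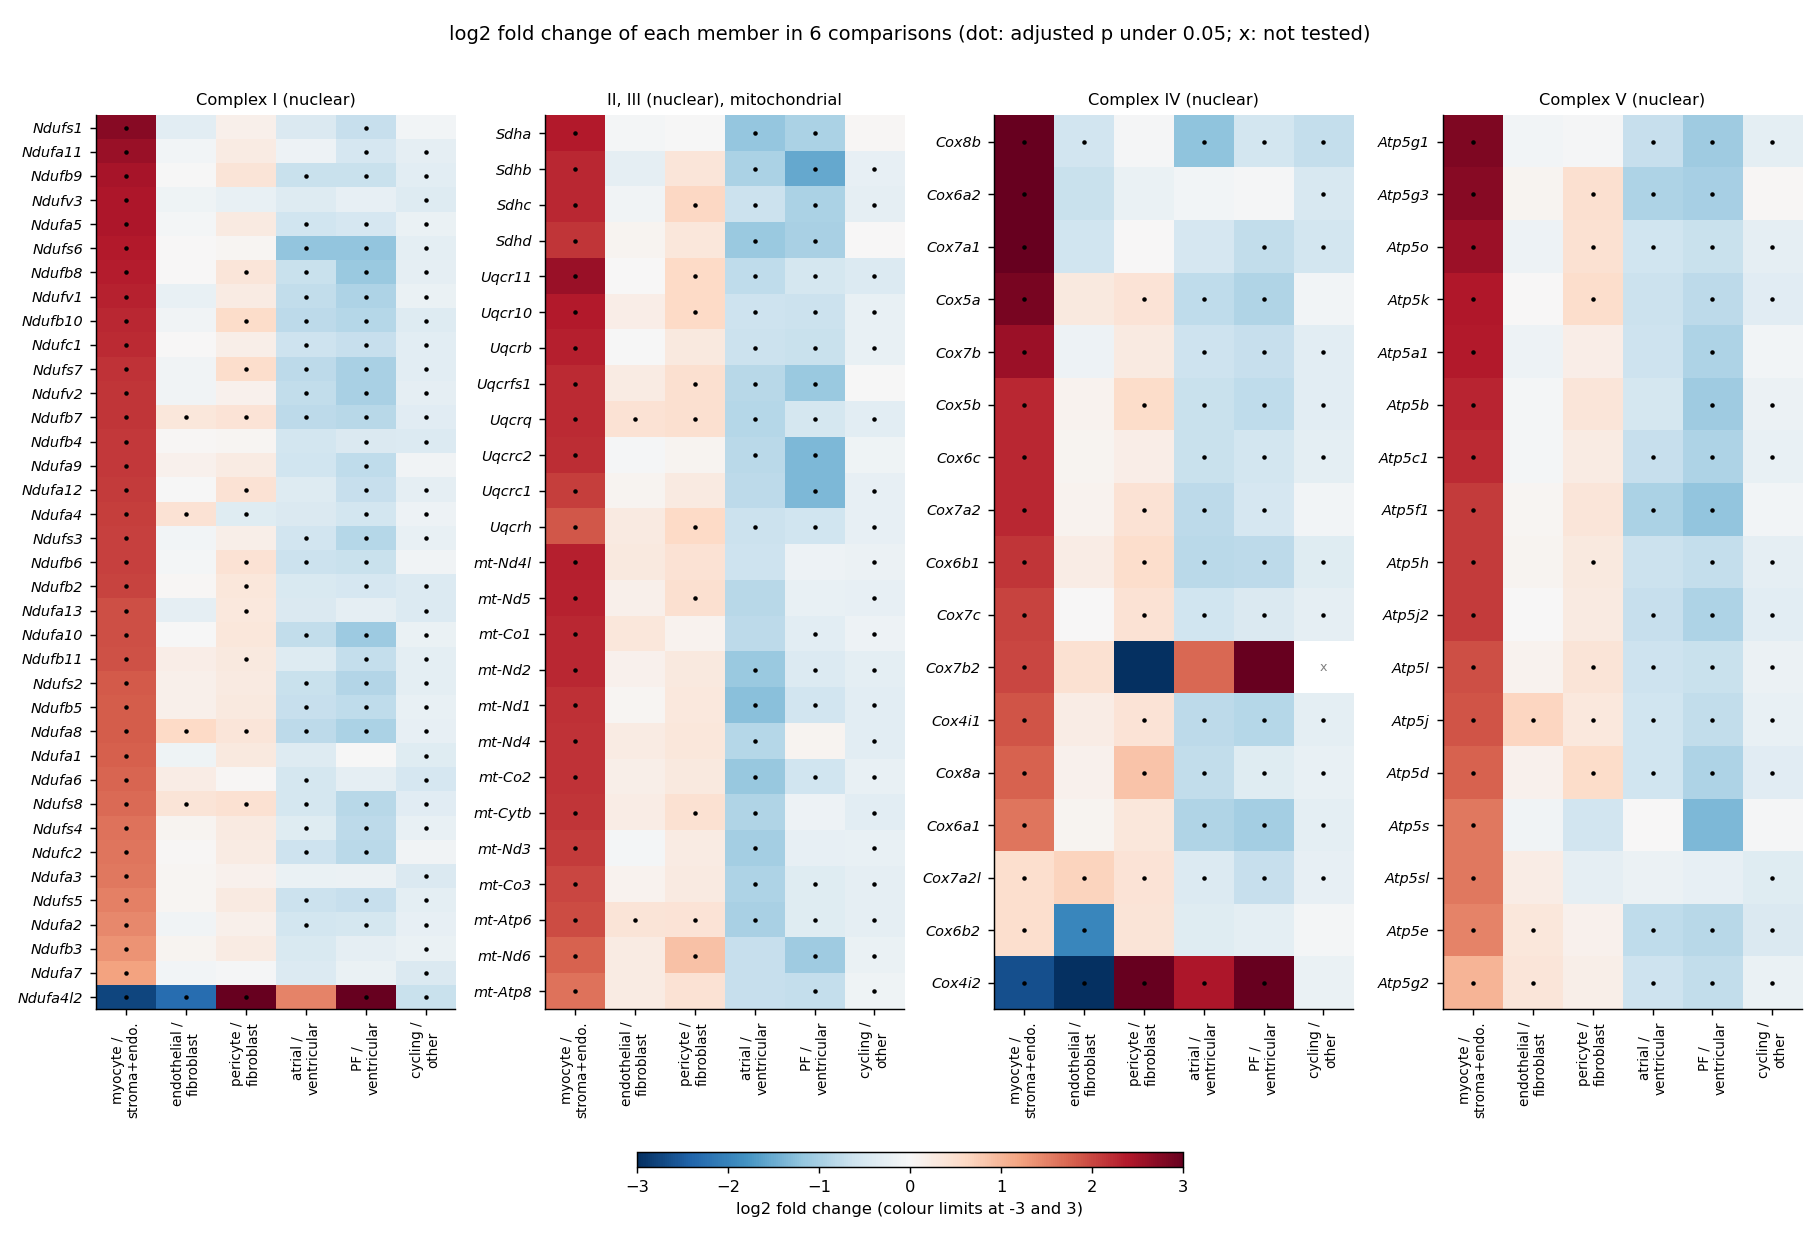
Log2 fold change of every tested member (rows, by complex) in 6 comparisons (columns), red for higher and blue for lower in the first-named class, with colours limited at -3 and 3. Dots mark edgeR adjusted p under 0.05. In the first column all but Ndufa4l2 and Cox4i2 are higher in cardiomyocyte-like cells.

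The largest differences of all lay in the muscle isoforms of complex IV. Cox6a2 (chr7:128205435-128206387, minus strand) stood at 1983, 1527, 1522 and 1839 CPM in cardiomyocyte-like cells of the SAN, AVN/His, left and right BB/PF regions and at 79.6, 61.6, 58.6 and 80.0 in endothelial-like cells. Its log2 fold change against the stromal and endothelial mean was 4.59 ± 0.27 (SE; edgeR adjusted p = 4.37e-12). Cox7a1 stood at 691, 739, 720 and 805 CPM against 31.0, 30.8, 25.7 and 41.3 (log2 fold change 4.52), and Cox8b, whose promoter window is shown above, at 434, 737, 547 and 775 against 16.1, 35.7, 20.1 and 31.8 (4.63). The common forms of the same subunits differed less: 1.6 for Cox6a1, 2.25 for Cox7a2 and 1.76 for Cox8a. The smallest rises in complex IV were those of Cox6b2 (0.50) and Cox7a2l (0.51), and Cox7b2, a rare form with 135 UMIs in all, was higher by 2.0.

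The low levels of the muscle isoforms in the larger classes of other cells stood near those of myocyte markers, which these cells should lack and which free RNA can carry into every droplet. In endothelial-like cells Cox6a2 stood at 3.85% to 4.35% of the cardiomyocyte-like level of the same library, Cox7a1 at 3.57% to 5.13% and Cox8b at 3.67% to 4.85%, beside 3.84% to 4.30% for the summed myocyte markers such as Tnnt2 and Myh6. The ratio of Cox6a2 to these markers was 23.3 to 47.1 UMIs per 1000 marker UMIs in endothelial-like cells and 24.99 to 46.5 in myocytes. In fibroblast or mesenchyme-like cells Cox6a2 stood at 4.02% to 9.45% beside 4.99% to 9.36%, and in macrophage-like cells at 9.26% to 12.7% beside 7.62% to 15.9%. In these 3 classes expression of the muscle isoforms cannot be told apart from carried-over RNA, and none is claimed. The smaller classes kept to the markers less closely: Cox7a1 stood at 8.99% beside 5.56% in pericyte-like cells of the AVN/His region, Cox8b at 2.63% beside 1.37% in those of the SAN region, and Cox7a1 at 2.40% beside 1.17% in neural or glial-like cells. Cox6a2 stood below the markers, at 1.88% beside 6.29%, in epicardial-like cells of the AVN/His region. The source of these UMIs was not tested. The common forms did not follow the markers, with Cox6a1 at 37.2% to 54.3%, Cox7a2 at 24.6% to 31.2% and Cox8a at 32.6% to 46.6% in endothelial-like cells.

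**Figure D3:**
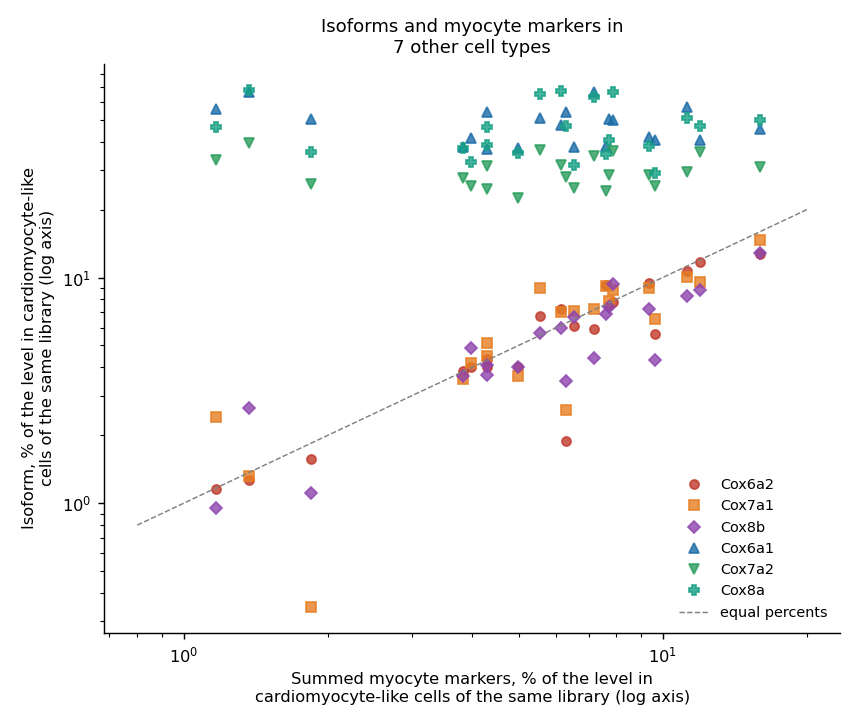
Level of 6 complex IV isoforms in 7 other cell types, as a percent of the cardiomyocyte-like level of the same library, against the same percent for 10 summed myocyte markers (both axes log, 1 point per class and library). Cox6a2, Cox7a1 and Cox8b scatter about the line of equal percents (3.85% to 4.35% for Cox6a2 in endothelial-like cells beside 3.84% to 4.30% for the markers), and Cox6a1, Cox7a2 and Cox8a lie above it.

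Within the myocytes the muscle isoform of subunit 6a was the major one in most subtypes and its share differed between them. Cox6a2 made up 52.5% to 58.1% of Cox6a UMIs in ventricular-like cells (3 libraries), 65.3% and 71.0% in atrial-like cells (AVN/His and SAN regions), 69.9% and 72.1% in PF-like cells (left and right), 69.7% in SAN-like cells and 40.9% in AVN/His-like cells. Among these subtypes, AVN/His-like cells were thus the only ones with less Cox6a2 than Cox6a1, at 1039 CPM against 1503, in 1 library. Shares in cycling-like cells are not given here. Cox7a1 made up 22.4% to 24.2% of its family in ventricular-like, 26.2% to 27.9% in atrial-like, 19.6% to 20.4% in PF-like, 21.7% in SAN-like and 15.8% in AVN/His-like cells. Cox8b made up 16.5% to 23.6% in ventricular-like and 11.1% in AVN/His-like cells. The forms Cox7a2 and Cox8a therefore stayed the major ones in the subtypes whose shares are given here.

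The only members lower in cardiomyocyte-like cells than in the stromal and endothelial mean were Ndufa4l2 (log2 fold change -2.75, edgeR adjusted p = 1.73e-07) and Cox4i2 (-2.63, adjusted p = 1.63e-06), the low-oxygen forms. Both were concentrated in the pericyte-like cells. Ndufa4l2 (chr10:127514967-127517154, plus strand) stood at 1518, 1980, 1701 and 2113 CPM in pericyte-like cells of the SAN, AVN/His, left and right BB/PF regions, at 216, 106, 176 and 306 in fibroblast or mesenchyme-like cells and at 22.0, 7.74, 7.22 and 7.07 in cardiomyocyte-like cells. It made up 75.1% to 82.4% of Ndufa4 plus Ndufa4l2 UMIs in pericyte-like cells and 0.273% to 0.987% in cardiomyocyte-like cells. By later nomenclature both genes are counted with complex IV, and they were kept with complex I here by symbol.

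Cox4i2 (chr2:152754173-152765037, plus strand) stood at 685, 811, 941 and 960 CPM in pericyte-like cells, at 121, 131, 71.2 and 90.4 in fibroblast or mesenchyme-like cells and at 10.3, 4.15, 1.93 and 3.29 in cardiomyocyte-like cells, with no overlap between the 3 classes. Endothelial-like cells held 51.2% to 811% of the cardiomyocyte-like level of the same library, so Cox4i2 was not lower in myocytes than in endothelial-like cells of every library. Its share of the Cox4 family was 30.6% to 33.1% in pericyte-like, 10.4% to 11% in smooth muscle-like, 4.52% to 9.22% in fibroblast or mesenchyme-like, 0.357% to 1.06% in endothelial-like and 0.0410% to 0.303% in cardiomyocyte-like cells. Cox4i1 remained the major form even in pericyte-like cells. Another minor isoform, Cox6b2, was highest by share in epicardial-like cells (11.7% and 16.8% of Cox6b UMIs) and in smooth muscle-like cells (8.68% and 11.6%), against 0.456% to 0.806% in cardiomyocyte-like cells.

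**Figure D4:**
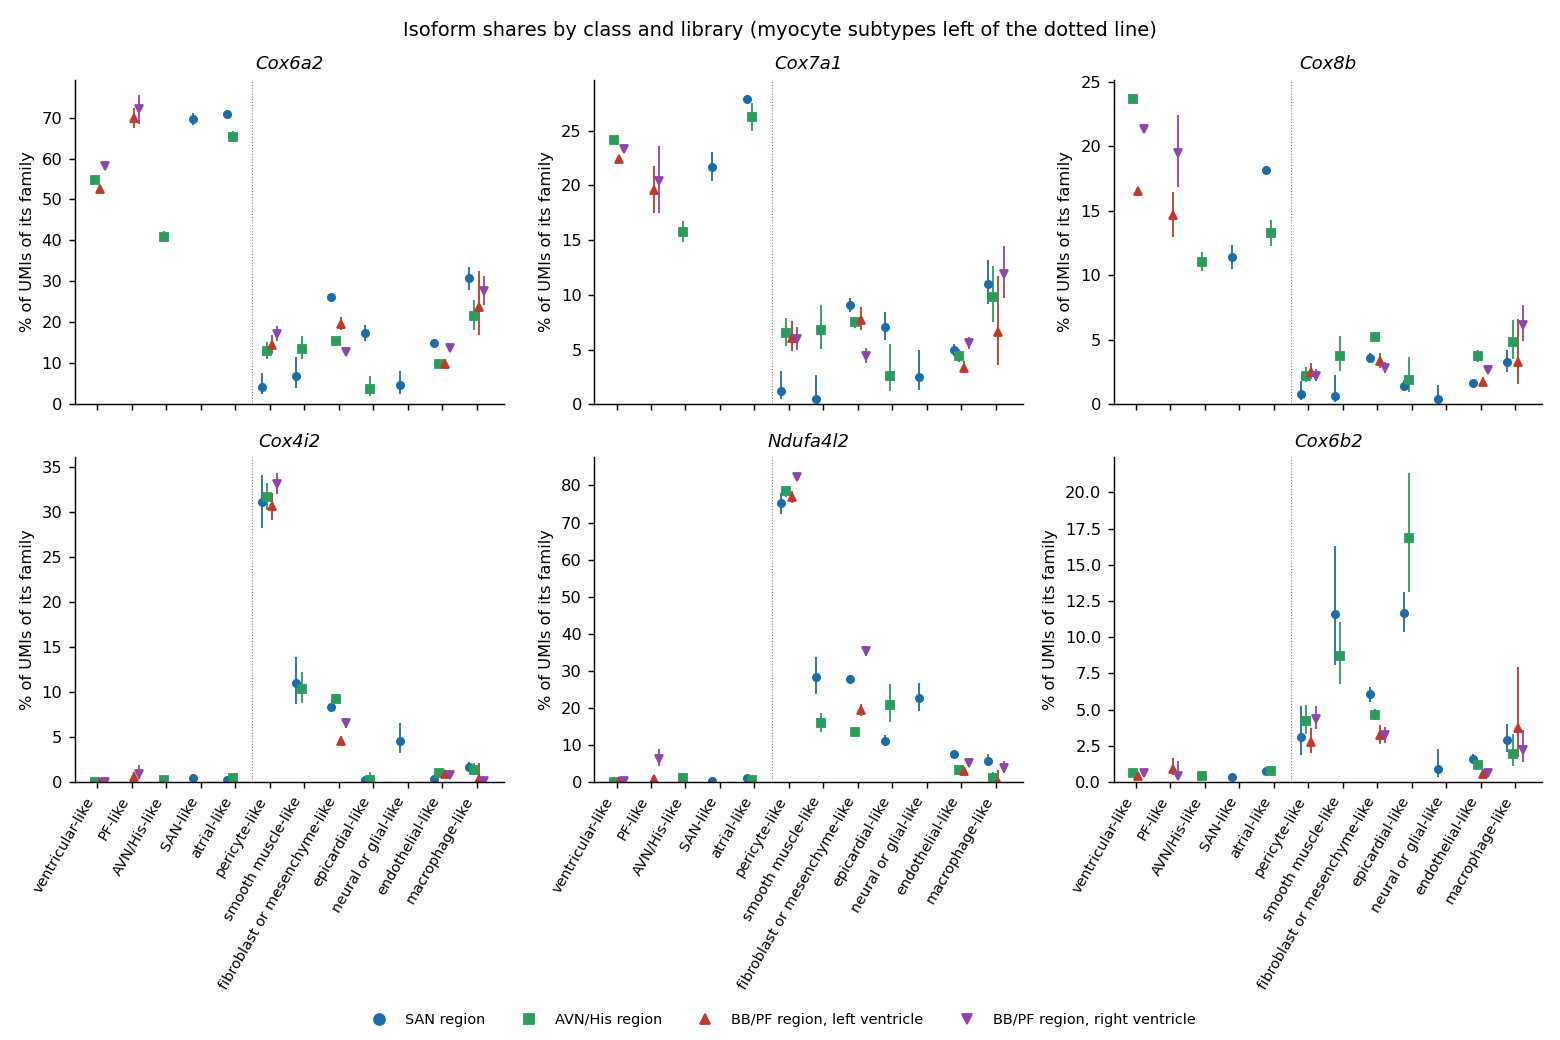
Share of 6 isoforms in the UMIs of their family (vertical axis, percent), by myocyte subtype and other cell type, 1 point per library with 95% Wilson intervals for counting error. Cox6a2 reaches 69.9% and 72.1% in PF-like cells, and Cox4i2 (30.6% to 33.1%) and Ndufa4l2 (75.1% to 82.4%) are highest in pericyte-like cells.

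The pericyte-like cells were then set against fibroblast or mesenchyme-like cells. Of the 83 nuclear members 34 were higher and 1 was lower (median log2 fold change 0.30), where 9.38% of all genes were higher and 10.7% lower. By complex, 12 members of complex I, 1 of complex II, 5 of complex III, 9 of complex IV and 7 of complex V were higher. Ndufa4l2 (3.25, edgeR adjusted p = 7.97e-07) and Cox4i2 (3.08, adjusted p = 3.56e-06) led, and Ndufa4 was the one member lower, at -0.35 (adjusted p = 0.0281), with 502, 546, 511 and 452 CPM against 557, 681, 732 and 562 in fibroblast or mesenchyme-like cells.

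The other called members differed by less than 1 log2 unit, while Cox7b2, with 0 UMIs in pericyte-like cells, did not pass the test (edgeR adjusted p = 0.479). Cox8a, the common form of subunit 8, stood at 1426, 1836, 1987 and 2036 CPM in pericyte-like cells and at 852, 893, 1149 and 1080 in fibroblast or mesenchyme-like cells (0.85, edgeR adjusted p = 1.08e-05), with no overlap. Uqcr10, Uqcr11 and Uqcrh were each higher by 0.60, Sdhc by 0.61, Atp5d by 0.56, Cox5b, Ndufb10 and Ndufs7 by 0.54, Atp5k by 0.53 and Atp5g3 by 0.48. Of the mitochondrial members mt-Nd6 (0.88), mt-Nd5 (0.48), mt-Cytb (0.47) and mt-Atp6 (0.42) were higher. These counts rest on all 4 libraries: without the AVN/His, left BB/PF or right BB/PF library, 13, 16 and 15 nuclear members were higher and no mitochondrial member by edgeR (4, 1 and 2 at an unadjusted p under 0.05), and without the SAN library all 13 mitochondrial members were. The 8 myocyte markers summed to 333, 1476, 1872 and 1541 CPM in pericyte-like cells and at 1818, 1686, 2124 and 1258 in fibroblast or mesenchyme-like cells, and their part in these differences was not tested.

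Between endothelial-like and fibroblast or mesenchyme-like cells the respiratory chain differed little. Of the nuclear members 9 were higher in endothelial-like cells and 4 lower (median 0.02), where 20.4% of all genes were higher and 21.7% lower. Members higher in endothelial-like cells included Cox7a2l, a factor joining complexes III and IV (0.66, with 769, 765, 793 and 881 CPM against 562, 488, 516 and 537), the coupling subunit Atp5j (0.65), Ndufa8 (0.60), Ndufa4 and Uqcrq (0.43 each), Ndufs8 (0.38), Atp5g2 (0.36) and Atp5e (0.33). The members lower were Cox4i2 (-2.99), Ndufa4l2 (-2.29), Cox6b2 (-1.95) and the muscle isoform Cox8b (-0.57), which stood near the level of the myocyte markers in both classes. Of the mitochondrial members only mt-Atp6 was called, at 0.38 (edgeR adjusted p = 0.0441).

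The second question was whether working and conduction myocytes differed in the respiratory chain. Ventricular-like cells held the highest nuclear sums, 11.8%, 11.9% and 12.5% in the AVN/His, left and right BB/PF regions, with mitochondrial sums of 16.7%, 16.0% and 16.3%. Without the 2 clusters led by mitochondrial genes the nuclear sums were 12.2%, 12.3% and 12.7% and the mitochondrial sums 14.8%, 14.8% and 15.6%. Atrial-like cells held 9.20% nuclear and 11% mitochondrial UMIs in the SAN region and 9.26% and 8.96% in the AVN/His region. The AVN/His region was the only library with both subtypes, and there the atrial-like nuclear sum was 9.26% against 11.8%. The atrial-like cells of that library may include nodal cells. Their 8 AVN/His markers summed to 1097 CPM, against 644 CPM in AVN/His-like cells.

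In the fit over all myocyte subtypes 56 of 83 nuclear members were lower in atrial-like than in ventricular-like cells and 1 was higher (median log2 fold change -0.63), where 4.52% of 12666 genes were lower and 5.85% higher. Of the mitochondrial members 8 of 13 were lower (median -0.91). By complex, 22 members of complex I, all 4 of complex II (median -1.04), 7 of complex III, 12 of complex IV and 11 of complex V were lower. The adjusted p-values of the called members lay between 0.034 and 0.0492 (Ndufs4), and edgeR called no member in either direction without the AVN/His, the left or the right BB/PF library, with the library as a block, or with 10 principal components (28, 71, 65, 52 and 72 nuclear members lower at an unadjusted p under 0.05), while 72 nuclear and 12 mitochondrial members were lower without the SAN library. Region and subtype cannot be told apart in 3 of the 4 libraries. Scaling to UMI totals moved the median of all genes from 0.05 to 0.30, and 25 nuclear members were then lower (median -0.37). Without the ventricular-like clusters led by mitochondrial genes 58 nuclear members were lower, Cox8b no longer among them, and 2 of the mitochondrial members (median -0.76).

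All 4 subunits of succinate dehydrogenase were lower in atrial-like cells. Sdhd stood at 248 and 289 CPM in atrial-like cells (SAN and AVN/His regions) and at 443, 516 and 497 in ventricular-like cells, a log2 fold change of -1.12 (edgeR adjusted p = 0.034), with -1.16 for Sdha, -0.95 for Sdhb and -0.64 for Sdhc. Ndufs6, a zinc-binding subunit needed to complete complex I, stood at 585 and 738 CPM against 1206, 1270 and 1256 (-1.18, adjusted p = 0.0395). Also lower were Cox8b (-1.20), Atp5f1 (-0.94), Atp5g3 (-0.92), Cox6a1 (-0.90), Uqcrq (-0.86) and Uqcrfs1, the Rieske protein (-0.82), and the groups did not overlap for Ndufs6 or Sdhd.

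Cox6a2 did not pass the test, with 2084 and 1899 CPM in atrial-like cells and 1717, 1633 and 1959 in ventricular-like cells (-0.09, edgeR adjusted p = 0.719), so its higher share in atrial-like cells came with a lower level of Cox6a1. Ndufa11 (-0.16) and Ndufa3 (-0.19) did not pass the test either. Cox4i2 was the 1 member higher in atrial-like cells, with 9.39 and 15.6 CPM against 1.58, 1.03 and 2.94 (2.42, adjusted p = 0.034). The 8 pericyte markers summed to 41.5 and 27.0 CPM against 77.3 to 87.7, but they include Abcc9, found in 29.5% of cells outside the pericyte-like class. At least 2 of Rgs5, Kcnj8, Abcc9, Higd1b and Pdgfrb stood in 78 of 2440 atrial-like cells of the SAN region, 7 of them with Cox4i2. They stood in 0 of 142 in the AVN/His region. In ventricular-like cells these counts were 27 of 1460, 30 of 3160 and 29 of 1708, with Cox4i2 in 1 cell each. The part of pericyte RNA was not tested. Of the mitochondrial members mt-Nd1 (-1.25), mt-Co2 (-1.15), mt-Nd2 (-1.12), mt-Nd3 (-1.02), mt-Atp6 (-0.97), mt-Co3 (-0.93), mt-Cytb (-0.91) and mt-Nd4 (-0.85) were lower.

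PF-like cells, found in both ventricular libraries, were compared with the other ventricular-like cells of the same library. Their nuclear sum was lower in both, 9.35% against 11.9% on the left (49 PF-like cells) and 9.82% against 12.5% on the right (22 cells), ratios of 0.784 (95% exact interval for counting error 0.776 to 0.791) and 0.788 (0.776 to 0.799). The mitochondrial sum was 14.8% against 16.0% on the left and 17.8% against 16.3% on the right. The mitochondrial sum was thus below the ventricular-like level on the left and above it on the right, a difference between sides that was not tested. It rests on which cells PF-like cells are set against: without the cluster led by mitochondrial genes the other ventricular-like cells stood at 14.8% on the left, the PF-like value, and at 15.6% on the right.

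The lower nuclear sum was uneven over the complexes, and alike on both sides. Complex II stood at 0.589 (0.543 to 0.639) of the ventricular-like level on the left and 0.550 (0.486 to 0.620) on the right, complex V at 0.696 and 0.709, complex III at 0.821 and 0.786, complex I at 0.827 and 0.840 and complex IV at 0.834 and 0.838. Of the 83 nuclear members 69 were lower and 2 higher in PF-like cells (median log2 fold change -0.73), where 11.3% of 11101 genes were lower and 7.85% higher. All 4 members of complex II, all 8 of complex III, 15 of 17 in complex V, 29 of 37 in complex I and 13 of 17 in complex IV were lower. This fit had 4 sums and 1 residual degree of freedom, and its small p-values rest on the spread edgeR shares between genes.

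Sdhb was lowest among the members of complex II, with 477 and 363 CPM in PF-like cells against 934 and 1007 in the other ventricular-like cells (-1.54, edgeR adjusted p = 3.45e-30), followed by Sdhd (-0.98), Sdha (-0.96) and Sdhc (-0.95). The core subunits of complex III, Uqcrc1 (397 and 408 CPM against 818 and 785) and Uqcrc2, each stood at a log2 fold change of -1.36, and Uqcrfs1 at -1.12. Ndufs6 stood at 704 and 715 CPM against 1270 and 1256 (-1.19), with Ndufb8 at -1.11 and Ndufa10 at -1.10. In complex V the b subunit Atp5f1 stood at -1.19 and the catalytic Atp5b at -1.07 (2165 and 2131 CPM against 3715 and 3333).

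Some members did not pass the test. Cox6a2 stood at 2246 and 2232 CPM in PF-like cells against 1633 and 1959 (-0.03, edgeR adjusted p = 0.9), while Cox6a1 stood at 965 and 862 against 1476 and 1415 (-1.02). Ndufa1 stood at 622 and 741 CPM against 520 and 535 (-0.00 on the TMM scale). The scale matters here: TMM factors placed the median of all genes at -0.08 and UMI totals placed it at 0.27, where 53 nuclear members were lower and 4 higher (median -0.37). On the TMM scale mt-Nd6 (-1.07), mt-Atp8 (-0.72), mt-Co2 (-0.59), mt-Nd1 (-0.58), mt-Nd2 (-0.41), mt-Atp6 and mt-Co3 (-0.36 each) and mt-Co1 (-0.32) were lower, but on UMI totals 2 mitochondrial members were lower and 1 higher with a median of 0.00, so that no direction is given for the mitochondrial set.

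Both low-oxygen isoforms were higher in PF-like cells, from few molecules. Cox4i2 had 9 UMIs in 7 of 49 left PF-like cells and 6 UMIs in 2 of 22 right ones, 5 of them in 1 cell, or 21.0 and 30.2 CPM against 1.03 and 2.94 (3.50, edgeR adjusted p = 1.03e-05). Ndufa4l2 had 9 UMIs in 5 left cells and 30 in 7 right cells, or 21.0 and 151 CPM against 7.23 and 5.24 (3.04, adjusted p = 1.46e-12). The 8 pericyte markers summed to 159 and 181 CPM in PF-like cells, 84.3 and 87.7 in the other ventricular-like cells and 2967 to 4487 in pericyte-like cells, with Rgs5, Pdgfrb, Kcnj8, Vtn and Higd1b at 0 in PF-like cells. A count per cell of Rgs5, Pdgfrb, Kcnj8, Higd1b and Abcc9 adds nothing to this. With all but Abcc9 at 0, no PF-like cell could hold 2 of these 5. The 8 macrophage markers summed to 299 and 111 CPM in PF-like cells, all of it Lyz2 with the other 7 at 0, against 2.62 and 5.41 in the other ventricular-like cells, and the part of other cells in these values was not tested.

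SAN-like and AVN/His-like cells came from 1 library each, so their values have no replicate check and no test. In the SAN region SAN-like cells held 8.68% nuclear and 12.6% mitochondrial UMIs, ratios to atrial-like cells of the same library of 0.944 (0.939 to 0.9495) and 1.15 (1.14 to 1.15). Counting intervals, which narrow with depth, lay below 1 for 49 of 82 nuclear members with at least 100 UMIs and above 1 for 15, where 12.2% of 9514 genes of that depth lay below and 25.3% above, and 11 of 13 mitochondrial members lay above. AVN/His-like cells held 9.43% and 11.1%, ratios of 0.796 (0.792 to 0.7995) and 0.663 (0.660 to 0.666) to the ventricular-like cells of that library, whose mitochondrial sum was 14.8% rather than 16.7% without the cluster led by mitochondrial genes. There 71 of 81 nuclear and 12 of 13 mitochondrial members lay below 1, where 8.17% of 8279 genes did. By complex these ratios were 0.826 (I), 0.732 (II), 0.766 (III), 0.808 (IV) and 0.775 (V), so complex II was lowest here too. Against the atrial-like cells of the same library, which themselves carried AVN/His markers, the nuclear ratio was 1.02 (1.01 to 1.02) and the mitochondrial ratio 1.23.

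Cycling-like myocytes were compared with the other myocytes of the same library, which include the 5 clusters led by cycle genes. Nuclear sums were 8.30%, 10.3%, 10.8% and 10.6% in cycling-like cells of the SAN, AVN/His, left and right BB/PF regions and 9.01%, 11.3%, 11.7% and 12.4% in the others, lower in 4 of 4 libraries. Mitochondrial sums were 9.32%, 14.6%, 13.5% and 16.3% against 11.4%, 15.2%, 15.7% and 16.3%. Of 82 nuclear members tested 66 were lower and 0 higher by edgeR, also at an unadjusted p under 0.05 and by DESeq2 (median log2 fold change -0.26), where 24.7% of 11836 genes were lower and 21.1% higher, and all 13 mitochondrial members were lower (median -0.24). On UMI totals 56 nuclear members were lower and 4 higher, and 6 mitochondrial members were lower. Without the library as a block 6 nuclear members and no mitochondrial member were lower (17 and 0 at an unadjusted p under 0.05). Leaving out the clusters led by cycle genes gave the same counts of 66 and 13 (medians -0.28 and -0.28). Leaving out those led by mitochondrial genes gave 69 nuclear members but 3 mitochondrial members lower (median -0.14), and the mitochondrial sum of the other myocytes was then 13.6% in the AVN/His region and 14.4% and 15.6% in the BB/PF regions, below or above that of cycling-like cells by region.

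The muscle isoforms of complex IV were among the members lower by the most. Cox8b stood at 289, 565, 397 and 553 CPM in cycling-like cells and at 454, 809, 598 and 843 in the others (-0.71, edgeR adjusted p = 7.86e-07), Cox7a1 at 528, 597, 579 and 604 against 713, 799, 768 and 866 (-0.56), and Cox6a2 at 1638, 1227, 1280 and 1461 against 2031, 1654, 1603 and 1955 (-0.49). Each was lower in 4 of 4 libraries. Their partners Cox8a (-0.22) and Cox6a1 (-0.29) were lower by less, and Cox7a2 did not pass the test (-0.09). Among the others Ndufa4l2 (-0.67), Ndufa6 (-0.51), Ndufa7 and Atp5e (-0.43 each), Uqcr11 (-0.41), Atp5sl (-0.36), Atp5d (-0.35) and Uqcrq (-0.33) were lower. Sdha (0.03), Sdhd (0.02), Atp5g3 (0.03), Uqcrfs1 (-0.01) and Ndufs1 (-0.07) did not pass.

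Genes that build or serve the respiratory chain were counted for the same comparisons. Of 50 tested assembly factors and other electron carriers 45 were higher in cardiomyocyte-like cells than in the stromal and endothelial mean and 0 lower (median 1.17), led by cytochrome c, Cycs (2.85), cytochrome c1, Cyc1 (2.73), and the acyl carrier Ndufab1 (2.44). Of 34 genes of mitochondrial genome expression 24 were higher and 0 lower (median 0.90), led by Fastkd1 (2.45), the elongation factor Gfm1 (2.22) and the mRNA stabilizer Lrpprc (2.15), while the polymerase Polg (-0.11) did not pass. All 16 inner membrane and energy transfer genes were higher (median 1.82), led by Chchd10 (4.52), myoglobin, Mb (4.46), and mitochondrial creatine kinase, Ckmt2 (4.38). Of 17 transcriptional regulators 10 were higher, led by Perm1 (4.55), Ppargc1a (4.39) and Esrrg (4.14), where 32.3% of all genes were higher, and 6 lower, near the 34.7% of all genes, led by Epas1 (-2.50), the low-oxygen factor known from endothelial cells and pericytes, Myc (-2.33) and Ppard (-1.18). In PF-like cells 19 of 50 assembly genes and 13 of 15 inner membrane genes were lower, where 11.3% of all genes were. In cycling-like cells 20 of 50 and 8 of 15 were lower, where 24.7% of all genes were.

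**Figure D5:**
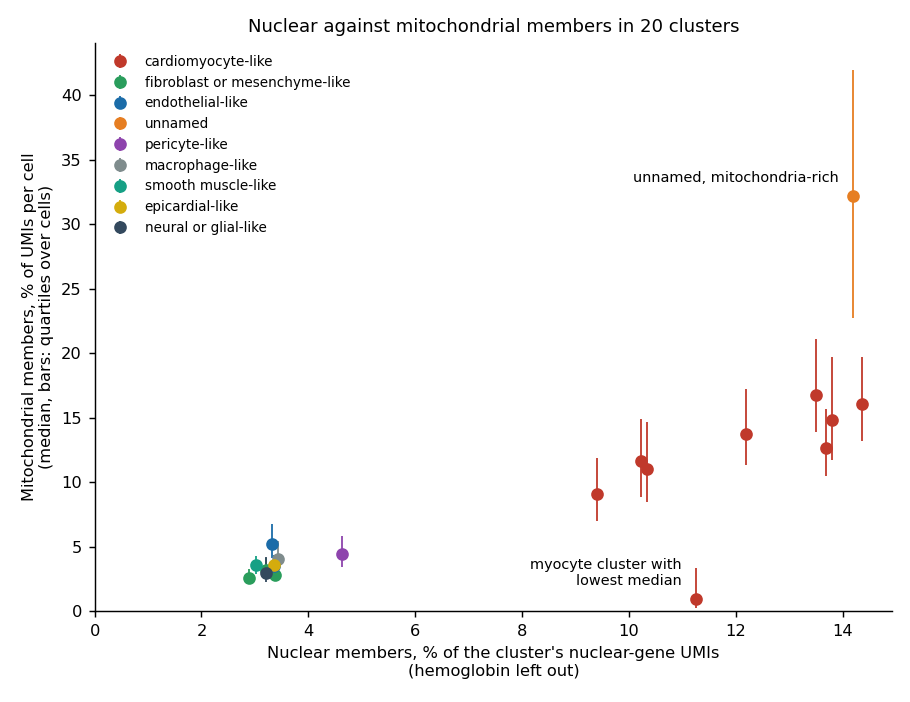
Nuclear members as a percent of the UMIs of nuclear genes (horizontal axis) against the median over cells of the mitochondrial share of UMIs (vertical axis, with quartiles) in the 20 clusters. Myocyte clusters lie at 9.40% to 14.4% nuclear UMIs, the unnamed cluster has a mitochondrial median of 32.1%, and 1 myocyte cluster has 0.938%.

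Nuclear and mitochondrial sums did not always move together among the clusters. A myocyte cluster of 199 cells had a median mitochondrial share of 0.938% per cell with a median nuclear share of 12.1% and a median of 5384 UMIs. The unnamed cluster, which passed 5 of 8 myocyte markers, held 22.4% to 32.3% mitochondrial UMIs per library with nuclear shares of 7.07% to 10.2%, and 668 of its 1110 barcodes came from the right BB/PF region. Hemoglobin took 55.0% of its UMIs in the SAN region and 2.64% to 3.18% in the others. Counting those of its barcodes with at most 1% hemoglobin as myocytes, ventricular-like outside the SAN region, left 22 nuclear members lower in atrial-like cells instead of 56. Across cells within a class and library the nuclear and mitochondrial shares were only weakly related, with Spearman's rho from -0.197 to 0.285 over 22 groups. These groups include myocyte subtypes that lie within the cardiomyocyte-like groups. Here the nuclear share was taken over UMIs of nuclear genes and the mitochondrial share over all UMIs other than hemoglobin. Both divisors grow with UMI depth.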

How the data were processed

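Cells of 4 embryonic day 16.5 regions were measured by 10x Genomics 3′ sequencing, 1 library per region. The authors aligned reads with Cell Ranger to mm10, per the submitters' processing notes, and deposited UMI counts per gene and barcode; the version and annotation release are not given in the sources used here. Unique-read counting leaves paralogs, pseudogenes and nuclear copies of mitochondrial DNA uncertain. The deposited totals were 49328589 to 58029660 UMIs per library.

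Barcodes with at least 500 genes were clustered (scanpy 1.11.5, leidenalg 0.10.2, 2000 variable genes, 20 principal components, 30 neighbors). A cluster took the type with the largest share of its markers, and one with 3 or more hemoglobin genes among its leading 10 was not named as a type, atrial or ventricular; this naming rule was set after the clusters had been seen. The members and gene lists were also chosen with earlier results of these data known. No doublets were removed; 552 cells had a Scrublet score over 0.2. UMIs were summed per library and class (at least 20 cells) and tested over all genes with edgeR 4.0.16 (TMM, quasi-likelihood, Benjamini-Hochberg) in R 4.3.3. The library was a block except for atrial-like against ventricular-like cells. DESeq2 1.42.0 was an alternative. Sums and CPM were computed from counts without hemoglobin genes, with 95% exact intervals that cover counting error only. Named genes were all mitochondrial members, isoform families and Sdha to Sdhd, plus the 3 highest and 3 lowest nuclear members of complexes I, III, IV and V in each comparison. All 97 members matched GENCODE vM21 (GRCm38) by gene ID. The fitting code was tested on simulated data.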

Additional observations from a re-analysis of the deposited data

Results flagged for a closer look

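The mitochondrial sum of PF-like cells stood at 0.925 (0.917 to 0.932) of the other ventricular-like cells in the left BB/PF region and at 1.09 (1.08 to 1.10) in the right, opposite directions in the only 2 libraries that hold these cells. Without the ventricular-like cluster led by mitochondrial genes, an alternative chosen after seeing the data, the sum of the other ventricular-like cells was 14.8% on the left, the PF-like value, and 15.6% on the right. The difference was not tested, and the intervals cover counting error only. No library was an outlier in the 14 groups of 4 libraries examined.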

How the results depend on the processing

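Each of 372 single-gene values was recomputed under the alternatives that apply to it: 5325 of these recomputed values kept direction and call, 747 lost the call and 3 turned. On UMI totals without TMM factors the log2 fold change was 0.0026 for Cox8a in PF-like against other ventricular-like myocytes, 0.0034 for mt-Atp6 in PF-like against other ventricular-like myocytes and 0.0355 for mt-Co1 in PF-like against other ventricular-like myocytes. For 20 counts and sums, 230 recomputed values stayed within their limits and 54 did not. Nuclear members higher in endothelial-like than in fibroblast or mesenchyme-like cells went from 9 to 15 with only the compared classes in the fit and to 16 without cells of high Scrublet score. The mitochondrial count there went from 1 to 0 with factors from other genes, without the block or with 10 principal components, to 6 with only the compared classes, to 2 without high Scrublet scores, and from 0 to 3 leaving out 1 library. In pericyte-like cells 34 nuclear members became 52 by DESeq2, 17 without the block, 6 with 10 principal components and 13 to 42 leaving out 1 library. The 4 mitochondrial members became 1 with factors from other genes or with the mitochondria-rich barcodes added, 0 without the block or with 10 principal components, and 0 to 13 leaving out 1 library. In atrial-like cells 56 nuclear members lower became 0 with the block or 10 principal components, 22 with the mitochondria-rich barcodes added, 25 on UMI totals and 0 to 72 leaving out 1 library. The 8 mitochondrial members became 0 with the block or 10 principal components, 2 without the clusters led by mitochondrial genes and 0 to 12 leaving out 1 library. In PF-like cells 8 mitochondrial members lower became 2 on UMI totals. In cycling-like cells 66 nuclear members became 6 without the block, and 13 mitochondrial members became 0 without the block, 6 on UMI totals, 3 without the clusters led by mitochondrial genes and 6 to 11 leaving out 1 library. The cause was not tested. The median nuclear sum moved from 11.2% to 13.2% in cardiomyocyte-like cells with nuclear-gene UMIs as the denominator and from 3.19% to 3.35% in endothelial-like cells. It moved to 2.93% (endothelial-like), 2.66% (fibroblast or mesenchyme-like, from 3.04%) and 3.83% (pericyte-like, from 4.35%) as a median per cell, and to 3.06% and 2.73% in the first 2 without high Scrublet scores. The median mitochondrial sum per cell was 4.01% against 4.60% in endothelial-like and 2.88% against 3.83% in fibroblast or mesenchyme-like cells.

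With 10 principal components the PF-like comparison gave no value, as under 20 such cells were left in the right BB/PF library. UMI totals, the mitochondria-rich barcodes, the cluster of low mitochondrial share and the clusters led by cycle or mitochondrial genes were chosen after seeing the data. The labels give no replicate numbers shared between groups, and classes were paired only by the library they came from. With 1 library per region, depth limits Cox8c, Cox7b2 and the isoforms of PF-like cells.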
